A study of Mus musculus with 6 samples.

Results

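The transcripts described here encode receptor chains for interleukin-18 (IL-18), interleukin-12 (IL-12), interferon-gamma and the type I interferons, a chain of the interleukin-10 receptor, and an adaptor protein that serves the IL-18 receptor. The 10 genes were Il18r1, Il18rap, Il12rb1, Il12rb2, Ifngr1, Ifngr2, Ifnar1, Ifnar2, Myd88 and Il10ra. They were selected by gene symbol, from a list drawn up with the comparison of the populations below already known, so their differences between the populations are a description and carry no test. All 10 were found among the 11162 genes listed and all 10 were among the 9351 genes tested, which had a mean of at least 1 RPKM (reads scaled to transcript length and to library depth) over the 6 libraries.

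Polyadenylated RNA was sequenced from spleen CD8 T cells of Nur77-GFP reporter mice, genotype Tg(Nr4a1-EGFP)GY139Gsat, in which a transgene places green fluorescent protein (GFP) under the control of the Nr4a1 locus, a gene induced by signals through the T-cell receptor. The cells carried the OT-I label, the name of a transgenic T-cell receptor, and were sorted as CD8+, Qa2hi, CD62Lhi and CD44lo, which are marks of naive cells. The GFP-hi population and the GFP-lo population came from this same gate and genotype, 3 libraries each, and were gated apart by reporter brightness. No treatment, age or number of mice was given in the labels, and nothing says that the 3 libraries of a population came from separate animals, so the spread between them may be technical.

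In a T cell, IL-18 is bound by Il18r1, and Il18rap then joins as the accessory chain; their cytoplasmic domains recruit Myd88, which leads to NF-kB. IL-12 is bound by Il12rb1 and Il12rb2 and acts through Tyk2, Jak2 and Stat4, while interferon-gamma is bound by Ifngr1 with Ifngr2 and acts through Jak1 and Jak2. In CD8 T cells, IL-12 and IL-18 together are known for inducing interferon-gamma without a signal through the T-cell receptor, mainly in cells that have met antigen before.

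Il18r1, Il18rap and Ifngr1 were lower in GFP-hi cells than in GFP-lo cells, with no overlap between the populations. Such lack of overlap is common here: it held for 26.9% of all genes tested, and for 9.84% with GFP-hi lower. Mean Il18r1 in GFP-hi cells was 26.2% of that in GFP-lo cells, mean Il18rap was 40.4% and mean Ifngr1 was 68.2%. The other 7 genes, among them the partner chain Ifngr2, both IL-12 receptor chains, both type I interferon receptor chains and Myd88, overlapped between the populations, and their log2 differences lay between -0.14 and 0.18. In bulk RNA, fewer cells that express a transcript and less transcript per cell cannot be told apart. The level of each gene in each library is plotted on a log axis.

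**Figure D1:**
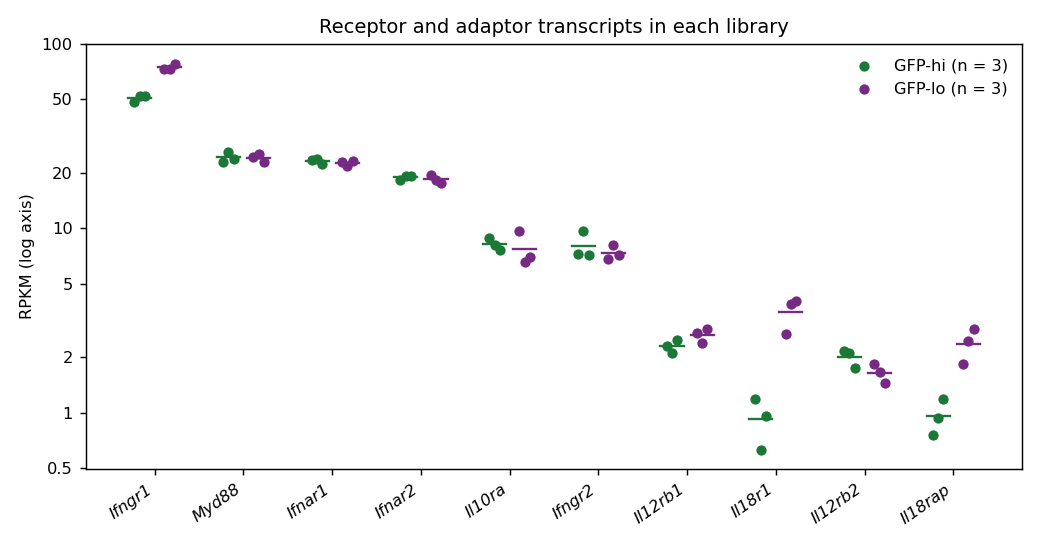
Level of each of the 10 genes in RPKM (log axis) in the 3 GFP-hi libraries (green) and the 3 GFP-lo libraries (purple), each point being 1 library and each line a population mean, with genes ordered by mean level. The 2 sets of points are apart for Ifngr1, Il18r1 and Il18rap and overlap for the other 7 genes.

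Library depth, recovered from the spacing of low RPKM values, was about 26170000 to 35940000 reads. The sorted identity was checked on markers: Cd8b1 stood at 785 to 839 RPKM, Cd3e at 192 to 209 and Cd44 at 2.17 to 2.62. Neither Nr4a1, at 61.5 ± 27.3 RPKM in GFP-hi and 60.6 ± 25.6 in GFP-lo (SD, n = 3 each), nor the GFP transcript, at 230.5 ± 27.3 and 207 ± 14.2, separated the populations, so the transcripts of the sorted reporter do not check the labels. The second library of each population stood apart by a stress transcript, Hspa1a, at 1100 and 1234 RPKM against 152 to 235 in the other 4. The libraries also differed in reads of 41 olfactory and vomeronasal receptor genes, whose median was 0.037 and 0.038 RPKM in GFP-hi 2 and GFP-lo 1 and 0.263 to 0.583 in the other 4.

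The IL-18 receptor genes lie next to each other on chromosome 1. Il18r1 (Entrez 16182) spans chr1:40465552-40500854 and Il18rap (Entrez 16174) chr1:40515362-40551707 in GRCm38, both on the + strand. Sequence from before annotated starts of both genes, and from before the start of Ifngr1 (Entrez 15979, chr10:19591949-19610229), is shown because these are the 3 genes whose populations were apart. The Il18r1 stretch at chr1:40465811-40465969 lies within the gene span given above. It comes from the window before the most downstream annotated start of Il18r1. The stretches are RefSeq sequence (GRCm38.p6), 5′ to 3′ on the strand of the gene, and hold no exon annotated by GENCODE. In RefSeq the preceding gene, Il1rl1, ends at chr1:40465418, just inside the first Il18r1 stretch. Capitals mark a match to the STAT site TTCNNNGAA.
Il18r1, chr1:40465416-40465551, + strand: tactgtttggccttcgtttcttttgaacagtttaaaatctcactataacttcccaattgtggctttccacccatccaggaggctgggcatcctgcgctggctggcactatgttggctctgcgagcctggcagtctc
Il18r1, chr1:40465811-40465969, + strand: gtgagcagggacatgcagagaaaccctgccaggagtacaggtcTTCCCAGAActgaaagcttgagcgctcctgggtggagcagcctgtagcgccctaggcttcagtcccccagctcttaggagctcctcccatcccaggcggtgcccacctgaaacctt
Il18rap, chr1:40515112-40515361, + strand: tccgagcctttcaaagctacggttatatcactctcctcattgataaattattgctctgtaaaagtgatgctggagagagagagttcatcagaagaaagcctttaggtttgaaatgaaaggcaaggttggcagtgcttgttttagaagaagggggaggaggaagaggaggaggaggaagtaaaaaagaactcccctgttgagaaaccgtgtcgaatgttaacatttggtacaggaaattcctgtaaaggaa
Ifngr1, chr10:19591699-19591948, + strand: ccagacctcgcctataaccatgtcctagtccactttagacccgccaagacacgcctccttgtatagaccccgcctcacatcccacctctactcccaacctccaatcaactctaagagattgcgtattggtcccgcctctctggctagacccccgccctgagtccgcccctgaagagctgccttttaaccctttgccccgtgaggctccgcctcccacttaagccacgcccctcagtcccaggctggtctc

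Among the windows of 250 bases before each start, 8 of the 10 genes had an entry, in 10 windows. The STAT site TTCNNNGAA, searched on both strands, was in 4 of these 10 windows and in 7.02% of all 32851 windows. The 4 windows belong to 4 of the 8 genes (Il18r1, Il12rb2, Ifnar2 and Myd88). In Il18r1 the STAT site stood before the most downstream of the annotated starts, 152 bases and 219 bases away. The farther match lay in an annotated exon of another transcript. The T-box site AGGTGTGA was in the Myd88 window and in 1.12% of all windows. The NR4A site AAAGGTCA (1.34% of all windows), the AP-1 site TGANTCA (6.75%) and the Runx site TGTGGTT (4.4%) had no match in the 10 windows, which says only that these letters are absent from them. Il18rap and Ifngr1 had no match to any of the 5 motifs.

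Il18r1, the ligand-binding chain, was at 1.19, 0.629 and 0.955 RPKM in GFP-hi libraries 1, 2 and 3 and at 2.66, 3.90 and 4.01 RPKM in GFP-lo libraries 1, 2 and 3. Every GFP-lo library was above every GFP-hi library, and the lowest GFP-lo library was 2.25 times the highest GFP-hi library. GFP-hi averaged 0.923 ± 0.280 and GFP-lo 3.53 ± 0.749 RPKM (SD, n = 3 each). On the log2(RPKM + 1) scale used for all differences, which understates the change of low genes, the difference was -1.23 (SE 0.15, 95% interval -1.57 to -0.89). Taking the full exon length of the gene, the values correspond to about 103 to 163 reads per GFP-hi library and 461 to 534 per GFP-lo library.

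Il18rap, the accessory chain that makes the IL-18 receptor able to signal, was at 0.755, 0.929 and 1.19 RPKM in the GFP-hi libraries and at 1.83, 2.44 and 2.84 RPKM in the GFP-lo libraries. Again no library of one population entered the range of the other, with the lowest GFP-lo library at 1.54 times the highest GFP-hi library. GFP-hi averaged 0.958 ± 0.218 and GFP-lo 2.37 ± 0.504 RPKM (SD, n = 3 each), and the log2 difference was -0.78 (SE 0.13, 95% interval -1.07 to -0.48). About 145 to 236 reads per GFP-hi library and 445 to 501 per GFP-lo library lay behind these values.

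For both IL-18 receptor genes the GFP-hi mean was below the filter of 1 RPKM, so they entered the test through the GFP-lo libraries. The low level in GFP-hi cells also makes the size of the log2 difference depend on the pseudocount: with 0.1 in place of 1 it was -1.84 for Il18r1 and -1.22 for Il18rap.

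The ratio of Il18r1 to Il18rap was 1.57, 0.677 and 0.803 in the GFP-hi libraries and 1.45, 1.60 and 1.41 in the GFP-lo libraries. The GFP-lo ratios were close to each other, while GFP-hi 1 matched them and GFP-hi 2 and 3 were lower. In GFP-hi 2 and 3, Il18r1 was therefore the lower of the pair, and in the other 4 libraries it was the higher.

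The IL-12 receptor chains were near the level of the IL-18 receptor chains in GFP-lo cells and overlapped between the populations. Il12rb1 (Entrez 16161, chr8:70808360-70823542), the chain shared with the interleukin-23 receptor, was at 2.31, 2.11 and 2.47 RPKM in GFP-hi and 2.71, 2.39 and 2.84 RPKM in GFP-lo. The highest GFP-hi library was above the lowest GFP-lo library. GFP-hi averaged 2.30 ± 0.181 and GFP-lo 2.65 ± 0.234 RPKM (SD, n = 3 each), with a log2 difference of -0.14 (SE 0.078, 95% interval -0.33 to 0.04).

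Il12rb2 (Entrez 16162, chr6:67285986-67376293), the chain that recruits Stat4, stood the other way, at 2.16, 2.11 and 1.75 RPKM in GFP-hi and 1.83, 1.66 and 1.44 RPKM in GFP-lo. GFP-hi 3 lay below GFP-lo 1, so the populations overlapped here too. Averages were 2.003 ± 0.225 and 1.64 ± 0.197 RPKM (SD, n = 3 each), with a log2 difference of 0.18 (SE 0.089, 95% interval -0.02 to 0.39). The ratio of Il12rb1 to Il12rb2 was 1.07, 1.00 and 1.42 in GFP-hi and 1.48, 1.44 and 1.97 in GFP-lo. The highest GFP-hi ratio was just under the lowest GFP-lo ratio. How often this holds for other gene pairs was not examined, so nothing is read from it.

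Ifngr1, the ligand-binding chain of the interferon-gamma receptor, was the most abundant of the 10 genes. It was at 48.5, 52.1 and 52.2 RPKM in GFP-hi and 73.4, 73.1 and 77.4 RPKM in GFP-lo. The libraries of each population lay close together and the lowest GFP-lo library was 1.40 times the highest GFP-hi library. GFP-hi averaged 50.9 ± 2.07 and GFP-lo 74.7 ± 2.40 RPKM (SD, n = 3 each), and the log2 difference was -0.54 (SE 0.055, 95% interval -0.67 to -0.42). About 3932 to 7515 reads per library lay behind these values. The spread of Ifngr1 within populations (SD 0.0521 on the log2 scale) was below the median of all genes tested, 0.0897. Those of Ifnar1, Ifnar2, Myd88 and Il12rb1 (0.0869) were also below it. Those of Il18r1 (0.234), Il10ra (0.202), Il18rap (0.193), Ifngr2 (0.171) and Il12rb2 (0.109) were above it.

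Ifngr2 (Entrez 15980, chr16:91547059-91564007), the signalling partner of Ifngr1, was at 7.27, 9.61 and 7.15 RPKM in GFP-hi and 6.79, 8.09 and 7.18 RPKM in GFP-lo. In each population the library with high Hspa1a had the highest Ifngr2, and whether the 2 are linked was not tested. GFP-hi averaged 8.01 ± 1.39 and GFP-lo 7.35 ± 0.667 RPKM (SD, n = 3 each), with a log2 difference of 0.10 (SE 0.11, 95% interval -0.15 to 0.36). The ratio of Ifngr1 to Ifngr2 was 6.68, 5.42 and 7.30 in GFP-hi and 10.8, 9.04 and 10.8 in GFP-lo. The ratios of the populations did not overlap, with means of 6.46 ± 0.957 and 10.2 ± 1.02 (SD, n = 3 each). Since Ifngr1 itself did not overlap, this is no separate result. How often the ratios of other gene pairs fail to overlap was not examined.

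The type I interferon receptor chains were at like levels in both populations. Ifnar1 (Entrez 15975, chr16:91485032-91510523), which binds Tyk2, was at 23.5, 23.8 and 22.3 RPKM in GFP-hi and 22.9, 21.9 and 23.3 RPKM in GFP-lo, with a log2 difference of 0.03 (SE 0.054, 95% interval -0.09 to 0.15). Ifnar2 (Entrez 15976, chr16:91372783-91405589), the high-affinity chain that binds Jak1, was at 18.3, 19.1 and 19.3 RPKM in GFP-hi and 19.5, 18.2 and 17.7 RPKM in GFP-lo, with a log2 difference of 0.03 (SE 0.057, 95% interval -0.10 to 0.17). Both intervals hold 0 and leave out a difference as large as that of Ifngr1. The ratio of Ifnar1 to Ifnar2 was 1.23 ± 0.0643 in GFP-hi and 1.23 ± 0.0756 in GFP-lo (SD, n = 3 each).

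Myd88 (Entrez 17874, chr9:119335934-119340018), the adaptor of the IL-18 receptor and of most Toll-like receptors, was at 23.0, 26.1 and 23.7 RPKM in GFP-hi and 24.3, 25.2 and 22.9 RPKM in GFP-lo. The libraries were interleaved, and the log2 difference was 0.01 (SE 0.065, 95% interval -0.14 to 0.16). Il10ra (Entrez 16154, chr9:45253837-45269149), the ligand-binding chain of the interleukin-10 receptor, was at 8.86, 8.14 and 7.59 RPKM in GFP-hi and 9.67, 6.53 and 7.02 RPKM in GFP-lo. The highest value was that of GFP-lo 1 and the lowest that of GFP-lo 2, which together enclosed every GFP-hi library, and the log2 difference was 0.09 (SE 0.13, 95% interval -0.20 to 0.38).

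**Figure D2:**
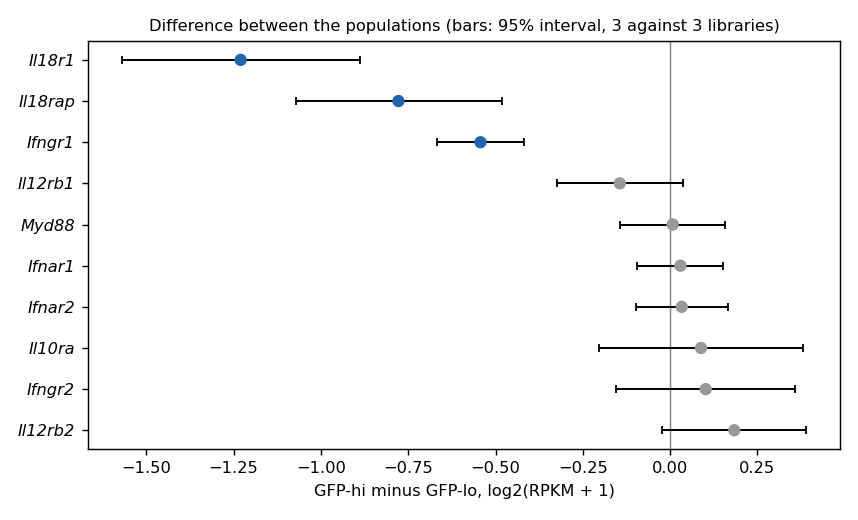
Difference between GFP-hi and GFP-lo for each of the 10 genes in log2(RPKM + 1), 3 against 3 libraries, with 95% intervals from the model fitted to all genes; blue points are genes called at an adjusted p under 0.05. Il18r1, Il18rap and Ifngr1 lie left of 0, at -1.23, -0.78 and -0.54, and the intervals of the other 7 genes hold 0.

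In the limma model over all 9351 genes, 3 of the 10 genes were called at an adjusted p under 0.05, all 3 lower in GFP-hi (Il18r1, Il18rap and Ifngr1) and 0 higher. Of all genes tested, 3.95% were called, 2.46% higher in GFP-hi and 1.49% lower. The populations did not overlap for 3 of the 10 genes, all lower in GFP-hi, against 26.9% of all genes in either direction and 9.84% lower in GFP-hi. Because the list was drawn up on this comparison, nothing is read from these counts. The median log2 difference of the 10 genes was 0.02, that of all genes tested also 0.02.

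The calls did not all hold in smaller sets of libraries. Ifngr1 was called under all 19 alternative settings, with log2 differences from -0.57 to -0.51. Il18r1 was called in 17 of the 18 alternatives that kept it and Il18rap in 14 of 18. Among the 4 libraries with lower Hspa1a (GFP-hi 1 and 3, GFP-lo 1 and 3), Il18r1 differed by -1.05, Il18rap by -0.75 and Ifngr1 by -0.57 on the log2 scale, and of these Ifngr1 alone was called. Among the 4 libraries with more olfactory and vomeronasal receptor reads, the differences were -1.26, -0.89 and -0.57, and all 3 were called. Without GFP-hi 1, GFP-lo 2 or GFP-lo 3, the Il18rap difference was -0.70, -0.76 or -0.68 and was not called.

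Because RPKM is scaled per length, levels can be set side by side between genes. Ifngr1 was first at a mean of 62.8 RPKM over the 6 libraries, at the 95.3rd percentile of the genes tested, and was above Myd88 (24.2 RPKM) in all 6. Myd88 and Ifnar1 (22.9) had overlapping ranges, and Ifnar1 was above Ifnar2 (18.7) in all 6. Il10ra (7.97) and Ifngr2 (7.68) also overlapped and lay apart from the genes on either side. The lowest were Il12rb1 (2.47), Il18r1 (2.22), Il12rb2 (1.82) and Il18rap (1.66), whose ranges each overlapped that of the next. The order of these 4 differed between the populations, since Il18r1 was the highest of them by its GFP-lo mean and the lowest by its GFP-hi mean, where it and Il18rap differed by less than their SDs.

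**Figure D3:**
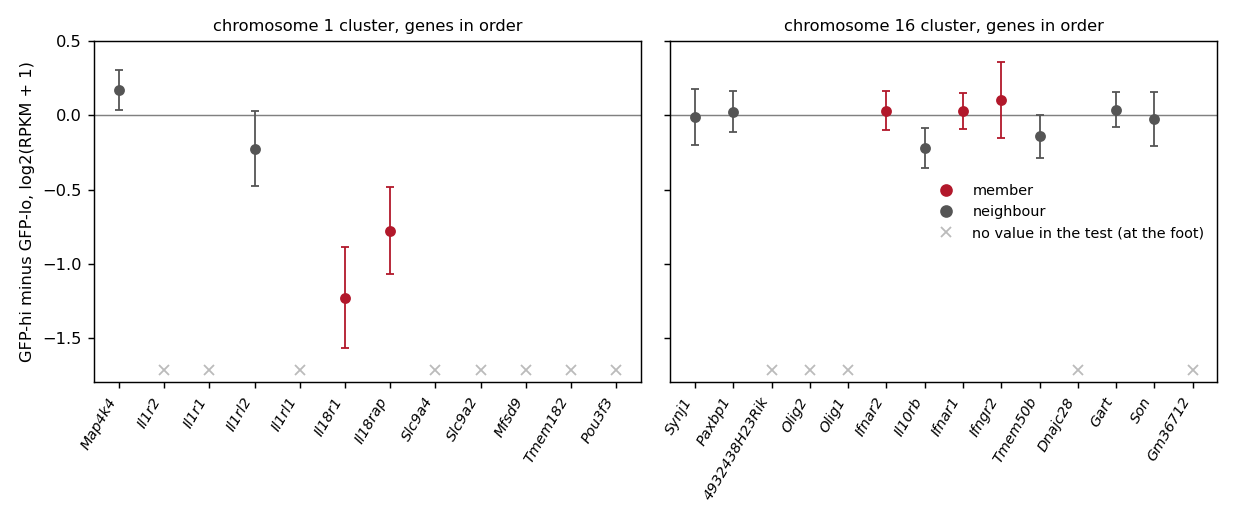
Difference between GFP-hi and GFP-lo in log2(RPKM + 1), with 95% intervals, for the genes of both receptor clusters in their order along the chromosome: members in red, neighbours in grey, and genes with no value in the test as crosses at the foot, whose height carries no value. In the chromosome 1 cluster only Il18r1 and Il18rap lie below -0.5; every tested gene of the chromosome 16 cluster lies between -0.22 and 0.10.

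Both clusters hold neighbours of related function. On chromosome 1, 10 annotated genes flank Il18r1 and Il18rap, among them the receptor genes Il1r1, Il1rl1 and Il1rl2. Of the 10, 5 had values and 2 were tested, and limma called 0 of these 2 (1, Map4k4, had an unadjusted p under 0.05). Il1rl2, a chain of the interleukin-36 receptor, was at 2.29 ± 0.453 RPKM in GFP-hi and 2.83 ± 0.259 in GFP-lo (SD, n = 3 each; limma log2 difference -0.23, adjusted p = 0.308). Map4k4, a kinase gene at the edge of the cluster, was at 15.8 ± 0.524 and 13.9 ± 0.772 RPKM (SD, n = 3 each; limma log2 difference 0.17, adjusted p = 0.164). Neither Il1rl2 nor Map4k4 overlapped between the populations. Il1rl2 was lower in GFP-hi, at most 2.639 RPKM against at least 2.643 in GFP-lo, and Map4k4 was higher. Over all genes tested, 26.9% did not overlap in either direction. Il1rl1, which encodes the interleukin-33 receptor and ends just before Il18r1 starts, was below the filter at 0.143 and 0.189 RPKM.

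The chromosome 16 cluster holds Ifnar2, Il10rb, Ifnar1 and Ifngr2 in this order. Of 11 neighbours, 7 had values and 6 were tested, and limma called 0 of them (1, Il10rb, had an unadjusted p under 0.05). Il10rb, the partner of Il10ra, was at 15.3, 17.2 and 16.5 RPKM in GFP-hi and 19.7, 18.8 and 18.8 RPKM in GFP-lo. Its populations did not overlap, and the limma log2 difference of -0.22 (SE 0.060) had an adjusted p of 0.0897. Tmem50b, at 11.5 ± 0.852 RPKM in GFP-hi and 12.75 ± 0.251 in GFP-lo (SD, n = 3 each), did not overlap either. It was not called (limma adjusted p = 0.269). Ifngr1, on chromosome 10, lies in neither cluster.

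For each IL-18 receptor gene, the genes of most similar profile were found by the mean absolute distance between centred log2(RPKM + 1) profiles over the 6 libraries. For Il18r1 these were Slc6a19 (distance 0.149), Ust (0.167), Pde2a (0.188), Pou6f1 (0.196) and Nacc2 (0.196). For Il18rap they were Apobec2 (0.0526), Slc28a2b (0.0739), Lbp (0.0984), Ifit1bl1 (0.101) and App (0.101). No gene was on both lists. Slc28a2b, a nucleoside transporter gene, was at 95.9, 105.4 and 124.4 RPKM in GFP-hi and 168.1, 170.7 and 195.8 RPKM in GFP-lo. Its libraries stood in the same order within each population as those of Il18rap, as did those of Apobec2, Lbp and Ifit1bl1. These genes were picked by likeness over the same libraries, so the shared order is no separate result. For Ifngr1, added after its values were seen, the nearest were Itga6 (0.0305), Cbx7 (0.0312), Prf1 (0.0319), Mirt1 (0.0342) and Pip4p2 (0.0408).

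The rest of each pathway was described with gene lists that were made when some of their calls (Cxcr3, Gzmb, Prf1, Gbp2 and Socs3) were already known. Of 8 genes for the receptor kinases, the STATs and their partner Irf9, limma called 0 (0 also at an unadjusted p under 0.05), with log2 differences from -0.07 to 0.07 and a median of -0.02. Stat4, which IL-12 activates, was at 43.3 ± 3.10 RPKM in GFP-hi and 45.3 ± 2.51 in GFP-lo (SD, n = 3 each). Of the ligands, only Ifng was tested among 12 genes, at 2.75, 5.12 and 2.87 RPKM in GFP-hi and 1.74, 5.68 and 3.11 RPKM in GFP-lo. Ifng was highest in the second library of each population, those with high Hspa1a, and was not called (limma log2 difference 0.08, adjusted p = 0.917).

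Downstream of Myd88, 16 of 18 NF-kB pathway genes were tested and limma called 0. Of the 16, 3 had an unadjusted p under 0.05: Rela and Ikbkb, lower in GFP-hi, and Ube2n, higher. Their log2 differences were below 0 for 14 of the 16, with a median of -0.05. Over all genes tested, 44.5% had a difference below 0 and 20.2% an unadjusted p under 0.05. Rela, an NF-kB subunit, was at 36.7 ± 0.732 RPKM in GFP-hi and 42.9 ± 1.85 in GFP-lo (SD, n = 3 each; limma log2 difference -0.22, adjusted p = 0.0654). Ikbkb, the kinase that releases NF-kB, was at 24.0 ± 0.491 and 27.5 ± 1.14 RPKM (SD, n = 3 each; limma log2 difference -0.19, adjusted p = 0.0983). Of 7 related receptors tested, limma called 0 and 1 (Il10rb) had an unadjusted p under 0.05.

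**Figure D4:**
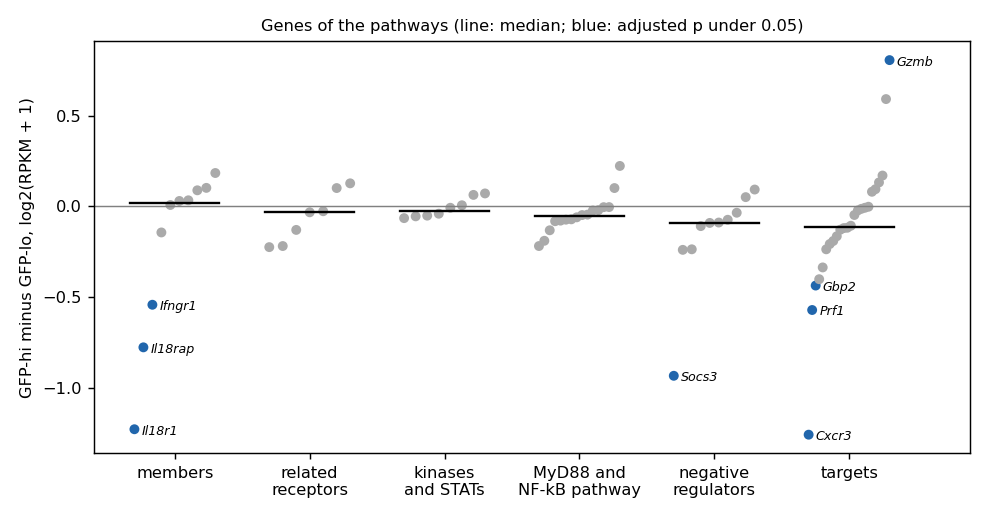
Difference between GFP-hi and GFP-lo in log2(RPKM + 1) for each tested gene of the 10 receptor and adaptor genes (members) and of 5 pathway lists, sorted within each list; black lines are medians and blue points are genes called by limma at an adjusted p under 0.05. The kinases and STATs lie between -0.07 and 0.07, while the targets run from -1.26 (Cxcr3) to 0.81 (Gzmb).

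Of 10 tested genes listed as negative regulators, limma called 1 lower in GFP-hi and 0 higher, against 3.95% of all genes called. Of the 10, 8 had a difference below 0, against 44.5% of all genes. The list also held Ddx58, a sensor of viral RNA rather than a negative regulator of these receptors. Socs3, which restrains cytokine receptor signalling, was at 27.3, 45.6 and 36.6 RPKM in GFP-hi and 63.4, 76.9 and 68.2 RPKM in GFP-lo. All GFP-hi libraries were below all GFP-lo libraries (limma log2 difference -0.94, SE 0.16, adjusted p = 0.0208). When GFP-hi 3, GFP-lo 1, GFP-lo 2 or GFP-lo 3 was left out, Socs3 was no longer called, at differences from -0.998 to -0.861 and limma adjusted p values of 0.0532 to 0.0832. The median of the list was -0.09. Socs3 is also 1 of 23 tested heat-shock and dissociation genes, of which 17 had a difference below 0 and 1, Socs3 itself, was called, with a median of -0.24 and a summed level of 3737 to 8090 RPKM in GFP-hi and 4801 to 9032 in GFP-lo. Whether the Socs3 difference is linked to those of the other genes of that list was not tested.

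Of 24 target genes of these cytokines tested, limma called 3 lower and 1 higher in GFP-hi cells. Of the 24, 10 had an unadjusted p under 0.05 and 18 a difference below 0, with a median log2 difference of -0.11. Over all genes tested, 3.95% were called, 20.2% had an unadjusted p under 0.05 and 44.5% had a difference below 0. Cxcr3, a chemokine receptor, was at 8.87, 9.12 and 12.6 RPKM in GFP-hi and 23.5, 22.3 and 31.4 RPKM in GFP-lo (limma log2 difference -1.26, SE 0.16, adjusted p = 0.00543). Prf1, which encodes perforin, fell from 34.1 ± 1.12 RPKM in GFP-lo to 22.6 ± 1.80 in GFP-hi (SD, n = 3 each; limma log2 difference -0.57, adjusted p = 0.00464). Gbp2, an interferon-induced GTPase, was at 44.0 ± 2.93 RPKM in GFP-lo and 32.2 ± 1.70 in GFP-hi (SD, n = 3 each; limma log2 difference -0.44, adjusted p = 0.0127). These 3 genes were lower in every GFP-hi library than in any GFP-lo library. So were the targets Irf1 and Igtp, which were not called. In the other direction, Gzmb, Ccl4, Nkg7 and Gadd45g did not overlap either. Over all genes tested, 9.84% did not overlap with GFP-hi lower, and 26.9% in either direction.

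Gzmb, which encodes granzyme B, rose, from 0.949, 1.67 and 2.24 RPKM in GFP-lo to 3.82, 3.38 and 3.26 RPKM in GFP-hi (limma log2 difference 0.81, SE 0.17, adjusted p = 0.0382). It was no longer called without GFP-hi 1, GFP-hi 2, GFP-hi 3 or GFP-lo 2 (limma adjusted p from 0.0782 to 0.119), and that of Gbp2 without GFP-hi 1 or GFP-lo 3 (limma adjusted p = 0.0521 and 0.0526). Other targets were not called: Irf1, a transcription factor induced by interferon-gamma, was at 60.2 ± 7.16 and 76.0 ± 4.89 RPKM in GFP-hi and GFP-lo (SD, n = 3 each; limma adjusted p = 0.0826), and Tbx21, the T-bet gene that IL-12 can raise, at 6.25 ± 2.03 and 6.80 ± 2.10 RPKM (SD, n = 3 each; limma adjusted p = 0.843).

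Markers of other cells that carry IL-18 or IL-12 receptors were examined beside these results. Of 15 natural killer and innate lymphoid markers, 5 had a value, and the defining ones among the 15 (Ncr1, Klrb1c, Klre1, Tyrobp and Fcer1g) had none analysed here. The list's summed level was 310 to 361 RPKM in GFP-hi and 275 to 321 in GFP-lo, mostly from Cd7, which rose (limma adjusted p = 0.00482), Il2rb, and Il7r, which fell (limma adjusted p = 0.00216); all 3 are also T-cell genes. Of the 4 natural killer and innate lymphoid markers tested, 2 were called and 3 had an unadjusted p under 0.05. Over all genes tested, these shares were 3.95% and 20.2%. Of 18 markers of antigen-experienced CD8 T cells, 11 had a value, with a summed level of 170 to 185 RPKM in GFP-hi and 184 to 201 in GFP-lo. Among the 9 tested, Cxcr3 fell, Id2 rose (limma log2 difference 0.36, adjusted p = 0.0404) and 7 differences were below 0, including that of Ly6c2 (23.2 ± 7.17 RPKM in GFP-hi, 41.6 ± 10.2 in GFP-lo; limma adjusted p = 0.0945), while Klrg1, Klrc1, Cx3cr1 and Gzmk had no value analysed here. Id2 was no longer called in 5 of the 6 fits without 1 library, all but that without GFP-hi 3 (limma adjusted p from 0.0801 to 0.133), nor in 3 other alternatives, among them scaling by the trimmed mean of M values (limma adjusted p = 0.0566). Of the 9 antigen-experienced markers tested, 2 were called, 5 had an unadjusted p under 0.05 and 7 a difference below 0. Over all genes tested, these shares were 3.95%, 20.2% and 44.5%. Whether antigen-experienced cells had a part in the lower IL-18 receptor transcripts was not tested.

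Markers of naive T cells summed to 2061 to 2328 RPKM in GFP-hi and 2295 to 2559 in GFP-lo. All 12 of 12 were tested, 1 (Il7r) was called lower, and 2 had an unadjusted p under 0.05. Of 8 regulatory and CD4 T-cell markers, 4 had values, while Cd4 and Foxp3 had no value analysed here. Their summed level was 17.8 to 27.1 RPKM in GFP-hi and at least 38.2 in each GFP-lo library. Most of it came from Cd40lg, which fell (limma adjusted p = 0.0109). Of the 3 tested, 2 had a difference below 0 (Cd40lg and Tnfrsf4) and 2 an unadjusted p under 0.05. Ctla4 stood the other way, at 2.54 ± 0.790 RPKM in GFP-hi and 1.42 ± 0.393 in GFP-lo (SD, n = 3 each). Ctla4 was not called (limma log2 difference 0.53, adjusted p = 0.158). Ikzf4, below the filter, was also higher in GFP-hi, at 0.514 and 0.233 RPKM. Of 11 T-cell markers, 2 myeloid markers and 1 B-cell marker tested, limma called 0, with 2, 0 and 1 at an unadjusted p under 0.05.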

How the data were processed

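RNA from 6 sorted cell samples was made into cDNA with SMART-seq v4 and into libraries with Nextera XT, per the labels' protocols. The deposited table gives RPKM values, computed by the authors per gene and library, per the file headers. STAR and the mm10 build (GRCm38) are named per the submitters' processing notes; the counting tool, annotation and versions are not given in the sources used here. In the table, 14 gene symbols had been turned into dates, none of them a member.

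The members and gene lists were chosen with earlier results of these data known. Genes with a mean of at least 1 RPKM over 6 libraries (9351 of 11162) were fitted on log2(RPKM + 1) with limma 3.58.1 in R 4.3.3 (mean-variance trend, 3 GFP-hi against 3 GFP-lo, two-sided, Benjamini-Hochberg adjustment over all 9351, threshold 0.05). Named were the 10 members, the called genes of each pathway list (at most 6 by adjusted p), the 5 genes of most similar profile to Il18r1 and to Il18rap, and 5 annotated neighbours on each side of the shared loci; other genes were named after their values were seen.

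RPKM values are not read counts. Depth was estimated from their steps in genes with 1 annotated transcript: 89.5% to 92.2% of 300 to 317 low values per library came within 0.1 reads of a whole number, where 20% would by chance. Read numbers of members assume their full exon length, and no count test was run. The precision of each value is limited by these depths and by 3 libraries per population.

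Tested on simulated data for this comparison (9351 genes), the fit recovered 95.6% of genes changed by 1 on the log2 scale. Of its calls, 5.79% were false. The simulated noise was independent between genes and libraries, so effects shared by the genes of a library were not covered. Changes smaller than 1, such as those of Il18rap and Ifngr1, were not simulated. The 19 alternatives changed the pseudocount (0.5, 0.1), the filter (none, a mean of at least 5 RPKM), the scaling (median, quantile, trimmed mean of M values), the model (no trend, robust, array weights, a heat-shock covariate) or the libraries (2 divisions into 4 libraries, with 2 per population, and 6 fits without 1 library each). Promoter windows and gene positions came from RefSeq for GRCm38.p6, and exons and exon lengths from GENCODE. Il12rb1 and Il10ra had no window.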

Additional observations from a re-analysis of the deposited data

How the results depend on the processing

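Among all genes, 369 calls became 202 with a minimum mean of 5 RPKM, where fewer genes were tested, 1282 with array weights, 817 with a heat-shock covariate and 101 in the 4 libraries with lower Hspa1a, where fewer samples were used; without 1 library each they ranged from 133 to 315. Of the 10 members, 3 calls became 1 with the minimum of 5 RPKM, which removed both IL-18 receptor genes, and 1 in the 4 libraries with lower Hspa1a, and without 1 library each they numbered 2 to 3. Il18r1, Il18rap and Ifngr1 were lower in GFP-hi under every alternative that kept them. Among the members not called, Ifngr2 moved from 0.10 to -0.07 on the log2 scale in the 4 libraries with more olfactory and vomeronasal receptor reads. Related receptors had 0 calls, and 1 with quantile scaling and 1 with array weights. NF-kB pathway genes had 0, and 1 with quantile scaling, 2 with array weights and 3 with the covariate. Negative regulators had 1, and 2 with array weights, 2 in the 4 libraries with more olfactory and vomeronasal receptor reads, and 0 to 1 without 1 library each. Targets had 4, and 7 with array weights, 1 in the 4 libraries with lower Hspa1a, and 2 to 4 without 1 library each. Ligands and kinases had 0 under all 19. Beyond the smaller sets of genes or samples, the cause was not tested. No paired analysis was run. The replicate numbers only follow the order of the samples, so whether libraries of the populations were paired is not known. Depth limits the IL-18 and IL-12 receptor genes most, which rest on 103 to 534 estimated reads per library.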
